A study of Mus musculus with 28 samples.

Results

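Cultures described as primary microglia can carry RNA of other cell types, and 34 genes used as markers of those types were followed through 28 libraries of mouse primary microglia. The set holds 12 fibroblast, 9 astrocyte, 8 oligodendrocyte and 5 neuron markers. Members were found by gene symbol in the count tables, with the row of the highest total taken where a symbol was listed again, and all 34 were found among 29066 genes with a count. The microglia came from mice that carry APOE3 or APOE3S/S, the form labelled Christchurch. The groups were APOE3S/S with tau (6 libraries), APOE3S/S with amyloid (3), untreated APOE3S/S (4), APOE3 with tau (6), APOE3 with amyloid (3) and untreated APOE3 (6). The untreated cells are labelled control, the APOE3 cells are labelled WT, and the labels give no vehicle, dose, time, age or number of animals. Library titles come in 2 forms: 17 end in SAN, here the SAN title series, and 11 do not, here the second title series. Both amyloid groups are wholly in the SAN series, while the other groups are spread over both, and the labels do not say what the titles stand for. They also do not say whether libraries of a group came from separate cultures or animals, so p-values measure the spread between these libraries, which may be technical.

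Each of these cell types has genes by which it is commonly recognised. Fibroblasts build the collagen matrix of the meninges and vessel walls, astrocytes take up glutamate and move water at the vessel wall, oligodendrocytes wrap axons in myelin, and neurons carry synaptic and cytoskeletal proteins of their own. Microglia are usually cultured from brain tissue in which the other types outnumber them, so such markers are routinely read as a measure of purity. A marker is rarely absolute: the Mbp locus also makes the golli transcripts known in immune cells, and nestin (Nes) marks dividing progenitors of several kinds. In RNA from a whole culture, fewer cells of a type and less RNA per cell cannot be told apart.

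The clearest signs of single libraries with more marker RNA came from the fibrillar collagen genes, and the bases just before the start of Col3a1 and Col5a1 are shown to place them. Of the 34 members, 23 had a promoter entry in RefSeq (GRCm38.p6), and Col1a1 had none. Among the fibrillar collagen members, Col3a1 and Col5a1 had an entry whose 250 bases before the start overlap no annotated exon. Both genes lie on the plus strand, Col3a1 at chr1:45311288-45311537 and Col5a1 at chr2:27886175-27886424 for the stretches printed, and capitals mark the letters TATAAA.
Col3a1: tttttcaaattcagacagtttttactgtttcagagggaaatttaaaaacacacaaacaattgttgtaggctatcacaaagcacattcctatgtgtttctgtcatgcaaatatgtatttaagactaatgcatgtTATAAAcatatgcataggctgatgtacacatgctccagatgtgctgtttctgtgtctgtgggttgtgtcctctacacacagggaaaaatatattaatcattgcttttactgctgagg
Col5a1: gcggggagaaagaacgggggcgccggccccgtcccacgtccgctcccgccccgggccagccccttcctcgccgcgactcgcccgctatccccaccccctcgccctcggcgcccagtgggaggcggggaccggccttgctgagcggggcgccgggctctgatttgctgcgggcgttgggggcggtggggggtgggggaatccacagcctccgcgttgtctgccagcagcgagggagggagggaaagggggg
The letters TATAAA and CCAAT were searched on both strands. TATAAA was found 1 time before Col3a1 and 0 times before Col5a1, and it occurs in 12.3% of 32544 promoters of the same length. CCAAT was found 0 times in both, and it occurs in 33.8% of those promoters. These counts describe the printed windows only.

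The libraries held 14.46 M to 27.22 M counts, with a median of 22.25 M in the second series and 16.94 M in the SAN series, and 17302 to 20023 genes were detected. At this depth 3 counts correspond to 0.110 to 0.207 CPM (counts scaled to 1000000 counts of a library), and a level below that is close to absence. The assay reads the 3′ ends of transcripts, so CPM was not divided by gene length. Microglia markers were abundant in every library: Csf1r, the receptor that keeps microglia alive, lay at 2018 to 3332 CPM and Ctss, a lysosomal protease, at 2827 to 4828 CPM. Tmem119 and P2ry12, markers of resting microglia in the brain, were low, at 0.910 to 5.83 CPM and 9.38 to 30.8 CPM. The APOE genotype cannot be read from these counts, since a base change inside the gene does not show in a count per gene.

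The 34 markers together took 0.0258 to 0.0406% of all counts in a library, with a median of 0.0324%. A list of 20 microglia genes summed to 40.7 to 70.5 times as much as the 34 markers (median 51.5). Of the 34, 18 averaged at least 1 CPM, 7 at least 5 CPM and 4 at least 20 CPM, and 19 had a count in every library. The 4 most abundant were Mbp (106.5 CPM), Cnp (98.1 CPM), Aldh1l1 (38.9 CPM) and Nes (25.1 CPM), as means over the 28 libraries. These 4 genes, and not the full range of glial markers, therefore set most of the summed level.

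Within the oligodendrocyte markers, Mbp, Cnp and Mag made up 89.7 to 98.5% of the summed CPM. Mbp, a protein of compact myelin, ran from 87.9 to 127 CPM over all libraries with a median of 106.3 CPM. Cnp, an enzyme of non-compact myelin, averaged 98.1 CPM, and Mag, an adhesion molecule that faces the axon, averaged 11.9 CPM. The other 5 were far lower. Cspg4, the NG2 proteoglycan of oligodendrocyte precursors and pericytes, averaged 8.17 CPM and the precursor factor Olig1 1.44 CPM. Olig2 and Sox10, transcription factors of the lineage, averaged 0.412 CPM and 0.392 CPM. Mog, found on the outermost layer of myelin, averaged 0.296 CPM and was at 0 in 11 libraries.

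Within the astrocyte markers, Aldh1l1, a folate enzyme, and Nes, an intermediate filament protein, made up 68.4 to 96.5% of the summed CPM. Gfap, the filament protein of mature astrocytes, averaged 2.60 CPM, the water channel Aqp4 2.33 CPM, and the glutamate transporters Slc1a3 and Slc1a2 1.376 and 1.17 CPM. The gap junction gene Gja1 averaged 0.656 CPM, the calcium-binding protein gene S100b 0.365 CPM and the transcription factor gene Sox9 0.354 CPM. Most defining astrocyte genes were thus detected at a few CPM or less.

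Among the fibroblast markers, Postn and Sparc, which encode matrix-associated proteins, averaged 5.17 and 4.33 CPM. The type I collagen genes Col1a1 and Col1a2 averaged 2.95 and 2.26 CPM, the type III collagen gene Col3a1 1.88 CPM and the type V collagen gene Col5a1 1.37 CPM. The smooth muscle actin gene Acta2 averaged 2.48 CPM and ranged only from 1.19 to 4.30 CPM. Decorin (Dcn), the receptors Pdgfra and Pdgfrb and the surface protein gene Thy1 averaged 0.247 to 0.939 CPM, and lumican (Lum) 0.0889 CPM with 16 libraries at 0. The neuron markers were the lowest class. Map2, Rbfox3 (NeuN) and Tubb3 averaged 0.404 to 0.654 CPM, while the synaptic genes Snap25 and Syt1 had 12 and 15 counts in all 28 libraries together and were at 0 in 22 and 21 of them.

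**Figure D1:**
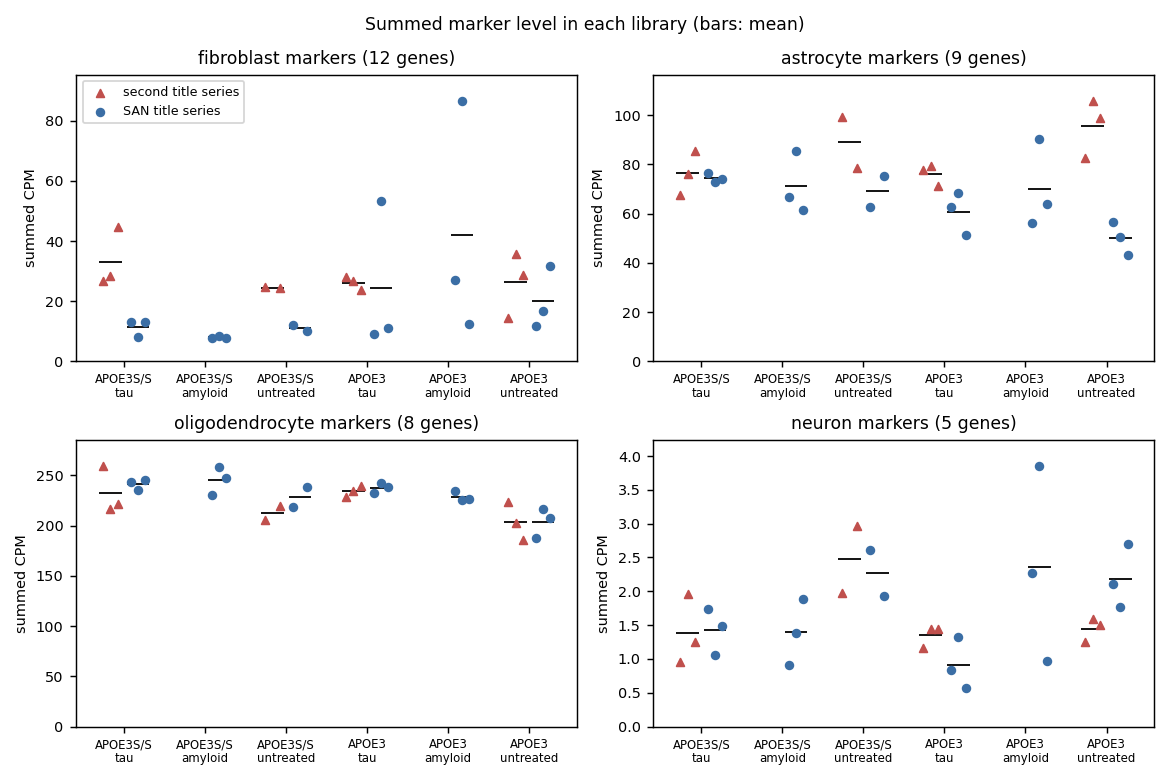
Summed CPM of the fibroblast, astrocyte, oligodendrocyte and neuron markers in each of the 28 libraries, by genotype and treatment; triangles are libraries of the second title series, circles those of the SAN series, and bars the mean of a group within a series. The oligodendrocyte sum lies between 185.2 and 259.3 CPM throughout, while the fibroblast sum reaches 86.7 CPM in an APOE3 amyloid library against a median of 20.2 CPM.

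The spread over libraries differed between the classes, as the plot of summed marker levels shows. The oligodendrocyte sum had a median of 229.4 CPM (185.2 to 259.3 CPM, SD 18.3, n = 28) and the astrocyte sum 73.3 CPM (43.2 to 105.9 CPM, SD 15.2). The fibroblast sum had a median of only 20.2 CPM but ran from 7.85 to 86.7 CPM (SD 17.1), and the neuron sum from 0.57 to 3.85 CPM around 1.496 CPM (SD 0.722). Of the 4 classes, the fibroblast markers had the widest spread relative to their median.

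Before any comparison, 3 libraries stood apart by their fibroblast markers: APOE3 amyloid library 2 (86.7 CPM summed), APOE3 tau library 5 (53.2 CPM), both in the SAN series, and APOE3S/S tau library 3 (44.6 CPM) in the second series. APOE3 amyloid library 2 held 311 counts of Col1a1, 292 of Col1a2, 384 of Col3a1 and 175 of Dcn. APOE3 tau library 5 held 233, 172, 179 and 67 counts of the same genes, and APOE3S/S tau library 3 held 286, 148, 118 and 11. The amyloid library also gave the highest level in the SAN series for 7 of 12 fibroblast, 5 of 9 astrocyte and 2 of 5 neuron markers, including Gfap (8.30 CPM), Aqp4 (8.40 CPM), Slc1a3 (5.51 CPM) and Gja1 (3.37 CPM). The oligodendrocyte markers had their highest SAN values in other libraries. APOE3 amyloid library 2 was also the SAN library with the most counts (18.68 M) and the most genes detected (19583). The share of all genes that were highest in it was not computed, so these marker counts have no background beside them. In libraries with at least 20 Col1a1 counts, Col1a2 counts were 0.193 to 1.62 times and Col3a1 counts 0 to 1.24 times the Col1a1 counts, so the collagens did not keep a fixed proportion.

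**Figure D2:**
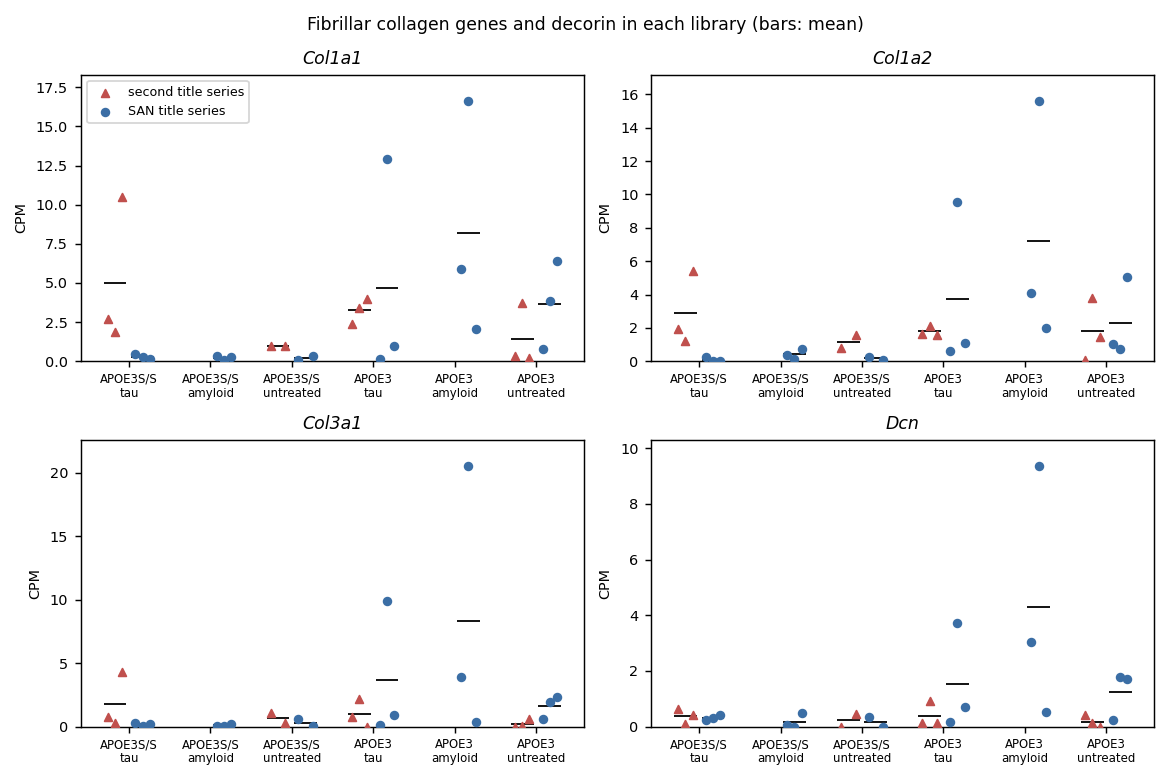
CPM of Col1a1, Col1a2, Col3a1 and Dcn in each library, by genotype and treatment; triangles are the second title series, circles the SAN series, and bars the mean of a group within a series. APOE3S/S libraries of the SAN series lie near 0 (Col1a1 at most 0.481 CPM), and APOE3 amyloid library 2 and APOE3 tau library 5 are the 2 highest points for each gene.

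The collagen values by library show where the range came from. In the SAN series Col1a1 (chr11:94936224-94953042, GRCm38) was at 0.481, 0.295 and 0.119 CPM in APOE3S/S libraries with tau, at 0.340, 0.0598 and 0.295 CPM with amyloid and at 0.0567 and 0.346 CPM untreated. In APOE3 libraries of the SAN series it was at 0.112, 12.9 and 0.950 CPM with tau, at 5.91, 16.6 and 2.06 CPM with amyloid and at 0.796, 3.87 and 6.39 CPM untreated. All but 1 of the 9 APOE3 libraries lay above all 8 APOE3S/S libraries of that series. In the second series Col1a1 was at 2.68, 1.84 and 10.5 CPM in APOE3S/S with tau and at 0.944 and 0.977 CPM in untreated APOE3S/S. There APOE3 had 2.39, 3.41 and 3.99 CPM with tau and 0.311, 3.70 and 0.188 CPM untreated. The genotypes overlapped in the second series.

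The same division held for 4 matrix genes summed. Col1a1, Col1a2, Col3a1 and Dcn together had a median of 0.812 CPM (0.239 to 1.71 CPM) in the 8 APOE3S/S libraries of the SAN series and of 8.35 CPM (1.01 to 62.2 CPM) in its 9 APOE3 libraries. In the second series the medians were 3.42 CPM (2.74 to 20.7 CPM) in 5 APOE3S/S libraries and 5.30 CPM (0.829 to 8.67 CPM) in 6 APOE3 libraries. These sums cross treatments and are given as a description without a test.

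More members were called between the title series than in any other comparison. In the 22 untreated and tau libraries, a fit with terms for group and title series (edgeR quasi-likelihood test, Benjamini-Hochberg adjustment over 13905 genes) called 11 of 29 tested members, 6 higher and 5 lower in the second series, while 38.6% of all genes tested were called (18.9% higher, 19.7% lower). The members' share is therefore close to that of all genes. Lum, Thy1, Sox9, Snap25 and Syt1 were too low to be tested in this fit. The log2 fold changes are second over SAN, each with its standard error.

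**Figure D3:**
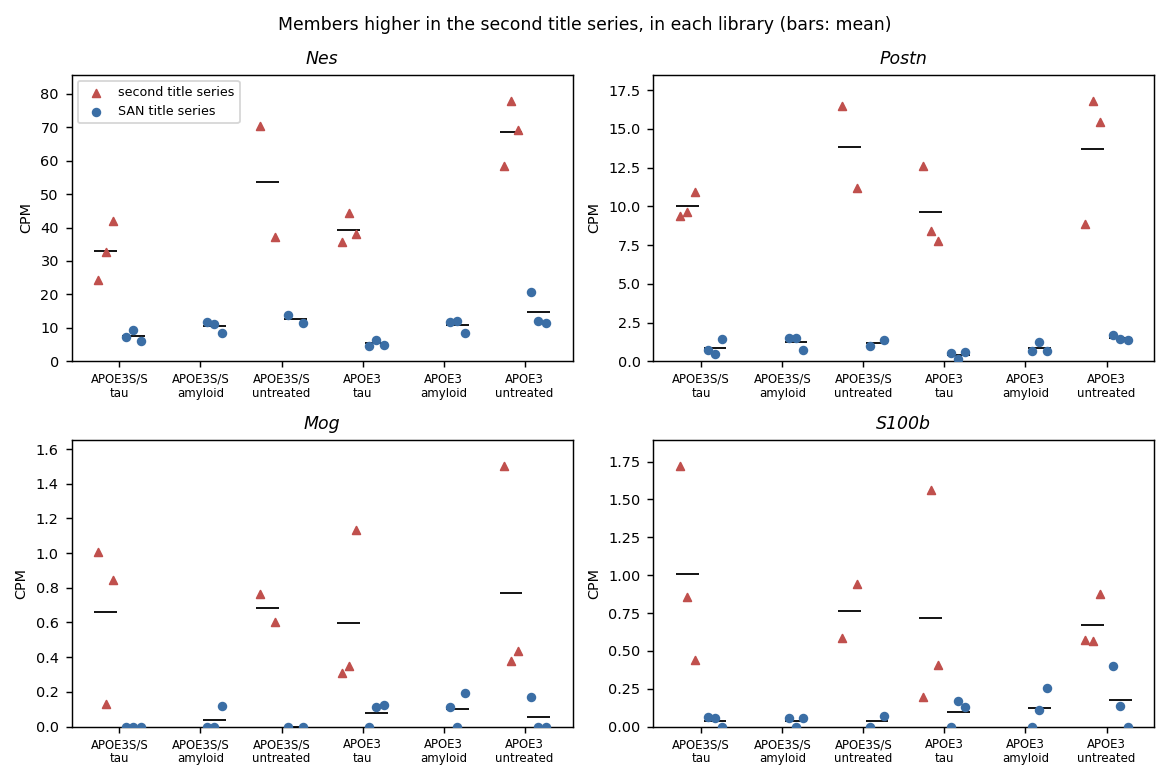
CPM of Nes, Postn, Mog and S100b in each library, by genotype and treatment; triangles are the second title series, circles the SAN series, and bars the mean of a group within a series. For Nes and Postn every second-series library lies above every SAN library, with the lowest at 24.4 and 7.79 CPM, and in the SAN series Mog is at or near 0.

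Postn (periostin, chr3:54361109-54391037) was at 7.79 to 16.8 CPM with a median of 10.9 CPM in the 11 second-series libraries, against 0.166 to 1.71 CPM and a median of 0.964 CPM in the 11 SAN libraries. Its log2 fold change was 3.67 ± 0.20 (edgeR adjusted p = 8.4e-12), and no library overlapped. Nes (chr3:87971078-87980451) had 24.4 to 78.0 CPM (median 41.9) in the second series and 4.66 to 20.9 CPM (median 9.33) in the SAN series. Nes was higher by 2.37 ± 0.15 (edgeR adjusted p = 5.9e-11), again without overlap. Both were called in untreated libraries alone and in tau libraries alone, at 3.40 ± 0.24 and 3.95 ± 0.27 for Postn and 2.23 and 2.50 for Nes.

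Mog (chr17:37010743-37023398) had 165 counts in the 11 second-series libraries (0.128 to 1.503 CPM, median 0.601) and 7 counts in the 11 SAN libraries (0 to 0.171 CPM, median 0). Its log2 fold change of 3.98 ± 0.60 (edgeR adjusted p = 1.6e-05) rests on levels near the floor. S100b (chr10:76253853-76261159) had 187 counts (0.193 to 1.72 CPM, median 0.584) in the second series and 17 counts (0 to 0.398 CPM, median 0.0601) in the SAN series, a difference of 3.02 ± 0.52 (edgeR adjusted p = 8.3e-05). Sparse as they are, both genes had counts in every second-series library. Cspg4 rose by 1.26 ± 0.25 (5.67 to 18.2 CPM in the second series, 1.96 to 18.4 CPM in the SAN series, edgeR adjusted p = 0.00043). Its difference was 1.91 ± 0.21 in tau libraries alone and 0.59 ± 0.34 in untreated libraries alone, where it was not called (edgeR adjusted p = 0.28). Sox10 rose by 1.06 ± 0.34 (edgeR adjusted p = 0.017).

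The astrocyte markers moved in both directions. Against the higher Nes and S100b, the glutamate transporter Slc1a2 (chr2:102658659-102790784) had 0 to 0.717 CPM (median 0.335) in the second series and 0.227 to 6.31 CPM (median 1.91) in the SAN series. It fell by 2.33 ± 0.43 on the log2 scale (edgeR adjusted p = 0.00019). Aqp4 had 0.104 to 1.496 CPM (median 1.1) in the second series and 0.543 to 6.69 CPM (median 2.66) in the SAN series, a log2 fold change of -1.503 ± 0.34 (edgeR adjusted p = 0.0012). Aldh1l1 (chr6:90486427-90600203) had 20.1 to 37.6 CPM (median 29.9) in the second series and 20.0 to 56.1 CPM (median 47.8) in the SAN series, -0.42 ± 0.10 (edgeR adjusted p = 0.0021). Slc1a3 (-0.73 ± 0.28, edgeR adjusted p = 0.047) and the fibroblast marker Pdgfrb (-0.95 ± 0.35, edgeR adjusted p = 0.033) were near the threshold. In untreated libraries alone Aqp4 and Aldh1l1 were not called (edgeR adjusted p = 0.11 and 0.29), and Slc1a2, Pdgfrb, Mog and Sox10 were too low to be tested. In tau libraries alone Slc1a3 was not called (edgeR adjusted p = 0.54), Slc1a2 was (-2.93 ± 0.32), and Mog, S100b and Sox10 were too low to be tested. The summed astrocyte level without Aldh1l1 and Nes had a median of 5.08 CPM in the second series and of 9.76 CPM in the SAN series.

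The calls for Pdgfrb and Slc1a3 also rested on single libraries. The Pdgfrb call was lost without any of untreated APOE3 libraries 2, 3 and 5, APOE3 tau libraries 1, 3 and 5 or APOE3S/S tau library 1 (edgeR adjusted p = 0.0506 to 0.0838). The Slc1a3 call was lost without any of 14 libraries: untreated APOE3 libraries 1, 3, 4, 5 and 6, untreated APOE3S/S libraries 1 and 4, APOE3 tau libraries 3 and 5, and APOE3S/S tau libraries 1, 3, 4, 5 and 6 (edgeR adjusted p = 0.0501 to 0.0991). The other 9 members kept their calls without any single library.

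Mbp, Cnp and Mag, the members with most of the oligodendrocyte counts, differed little between the series. Mbp had 87.9 to 127 CPM (median 101) in the second series and 97.8 to 124 CPM (median 107) in the SAN series, a log2 fold change of -0.01 ± 0.06. Mag had 9.46 to 15.7 CPM (median 11.3) in the second series and 6.59 to 16.6 CPM (median 10.7) in the SAN series, and Cnp 67.6 to 116 CPM (median 94.2) and 55.9 to 125 CPM (median 112). None of the 3 was called. The 5 other oligodendrocyte members summed to a median of 14.2 CPM (9.65 to 22.2 CPM) in the second series and of 6.13 CPM (3.61 to 21.5 CPM) in the SAN series. The calls in this class were therefore Mog, Cspg4 and Sox10, of which Mog and Sox10 could be tested in neither treatment alone, and not the abundant genes.

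Further oligodendrocyte genes outside the 34 were set beside them. Of 8 tested, 7 were called, all higher in the second series (median log2 fold change 2.22 against -0.01 over all genes). Over all genes tested, 38.6% were called (18.9% higher). The myelin regulator Myrf rose by 1.12 ± 0.15 (edgeR adjusted p = 4.7e-06). The list of 12 genes summed to 19.1 to 49.3 CPM (median 31.6) in the second series and 3.51 to 10.9 CPM (median 6.96) in the SAN series, without overlap. Opalin and Ermn had a median of 0. Myrf and Mog were thus called while Mbp was not, and the difference between the genes was not itself tested.

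**Figure D4:**
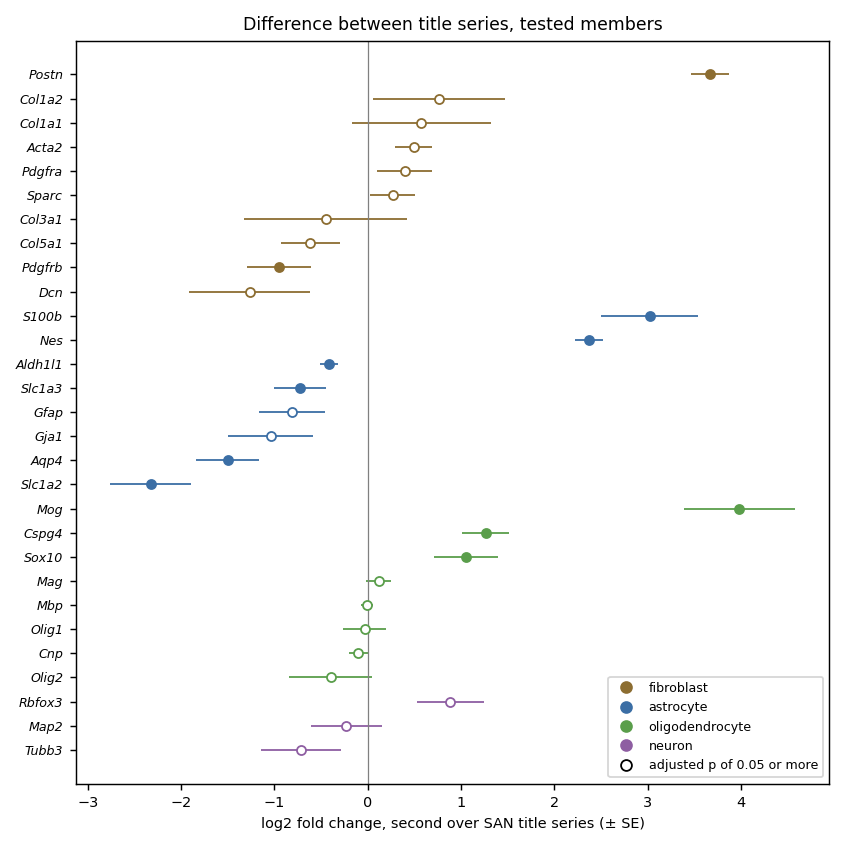
Log2 fold change (second over SAN title series, with its standard error) of the 29 tested members in the 22 untreated and tau libraries, coloured by class; filled points have an edgeR adjusted p under 0.05. Postn, Mog, S100b and Nes lie farthest to the right and Slc1a2 farthest to the left, while Mbp, Mag, Cnp and Olig1 lie near 0.

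Among the 10 fibroblast markers tested, Postn was higher and Pdgfrb lower in the second series, as the plot of series differences shows. DESeq2 also called Acta2 (0.49 ± 0.20, adjusted p = 0.035), and edgeR called Acta2 and Pdgfra in tau libraries alone (0.62 ± 0.17 and 0.96 ± 0.32). Without Postn the fibroblast sum had a median of 15.9 CPM (5.65 to 33.6 CPM) in the second series and of 11.2 CPM (6.40 to 85.5 CPM) in the SAN series. Of 12 further fibroblast genes tested 2 were called, Fn1 (fibronectin, 1.24 ± 0.14) and Pdpn (podoplanin, 1.24 ± 0.19), both higher. The background for these and for the further astrocyte and neuron genes is 38.6% of all genes called. None of the 3 tested neuron markers was called by edgeR, with 1 at an unadjusted p under 0.05, and Rbfox3 was called by DESeq2, as was the astrocyte marker Gfap (-0.83 ± 0.35, adjusted p = 0.043). Of 8 further astrocyte genes tested 4 were called, including Aldoc (-1.54 ± 0.11) lower and Clu (0.84 ± 0.20) higher, and of 3 further neuron genes Elavl4 (1.26 ± 0.25) was higher.

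Markers of yet other cell types also moved with the title series, as did 38.6% of all genes tested. Of 8 border macrophage and monocyte genes tested, 6 were called, including Pf4 (1.67 ± 0.10) and Ly6c2 (-5.84 ± 0.49), and the list summed to 2526 to 3891 CPM in the second series and 1503 to 1878 CPM in the SAN series. All 3 ependymal and choroid plexus genes tested were called, with Ttr higher by 3.15 ± 0.68 and Folr1 by 1.83 ± 0.43, and the list summed to 2.01 to 151.2 CPM in the second series and 0.295 to 16.8 CPM in the SAN series. Both lymphocyte and neutrophil genes tested were lower, with log2 fold changes of -1.83 ± 0.17 for S100a8 and -2.61 ± 0.59 for Camp, while S100a9 and Nkg7 were at 0 throughout. Of 4 endothelial genes tested Kdr (-0.61) was lower, and the only mural gene tested was Cspg4. Of 20 microglia genes 11 were called, 9 of them higher, including Itgam (1.01 ± 0.08) and C1qc (0.59 ± 0.08). Sequencing depth also differed, as given above. Their part in the marker differences was not tested.

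Tau was compared with no treatment within each genotype, with the title series as a term. In APOE3, 5 of 29 tested members were called, 3 higher and 2 lower with tau (edgeR adjusted p under 0.05), while 14.8% of all genes tested were called (8.98% higher, 5.87% lower). The share of members is close to that background. Cnp, Aldh1l1 and Pdgfrb rose, and Nes and Postn fell. The member fold changes had a median of 0.08 and those of all genes of -0.02 on the log2 scale.

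**Figure D5:**
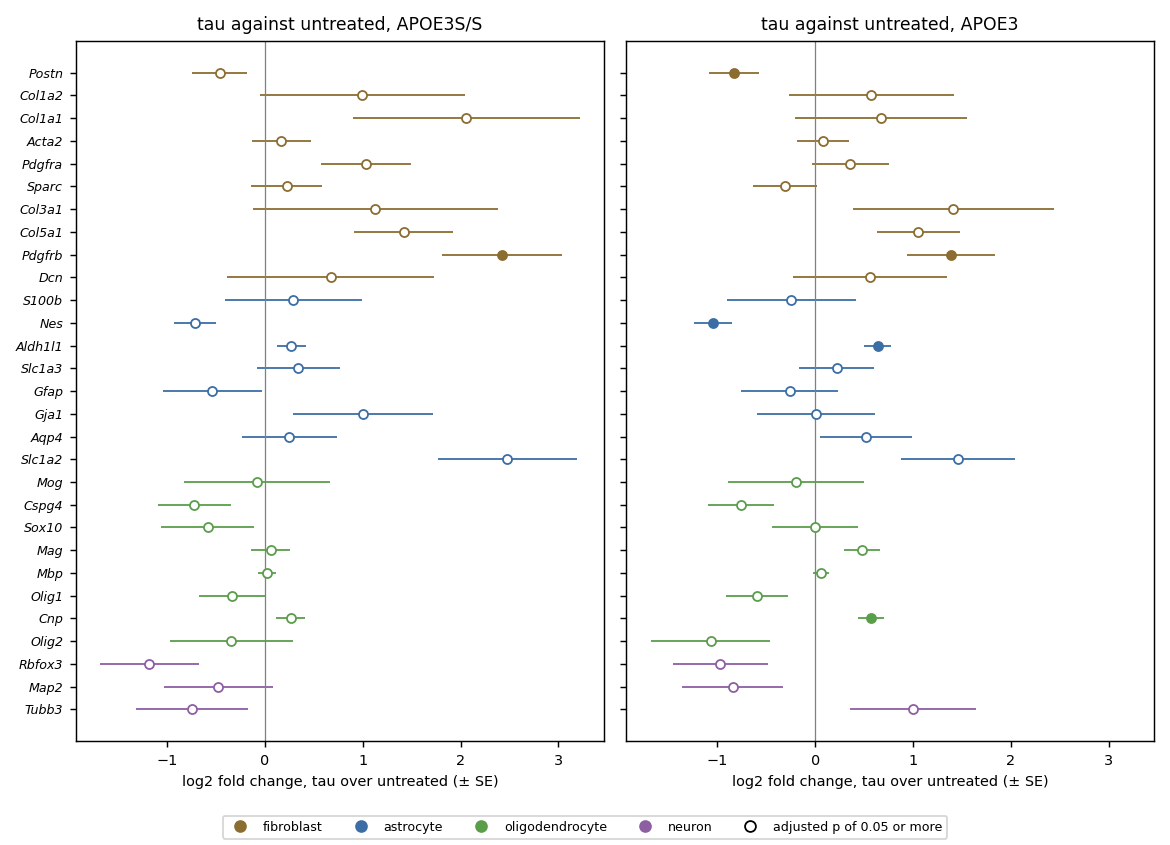
Log2 fold change (tau over untreated, with its standard error) of the 29 tested members in APOE3S/S (left) and APOE3 (right), coloured by class; filled points have an edgeR adjusted p under 0.05. Pdgfrb is filled in both panels, and Nes, Postn, Aldh1l1 and Cnp in the APOE3 panel; the difference between the panels was called for none of the 29 members.

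Nes fell with tau in APOE3. In the second series it was at 35.7, 44.5 and 38.0 CPM with tau, against 58.5, 78.0 and 69.3 CPM untreated, and in the SAN series at 4.66, 6.49 and 4.88 CPM with tau, against 20.9, 12.1 and 11.4 CPM untreated. All tau libraries lay below all untreated ones of the same series. The log2 fold change was -1.04 ± 0.19 (edgeR adjusted p = 0.00096), with -0.79 in the second series alone (adjusted p = 0.076) and -1.39 in the SAN series alone.

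Aldh1l1 rose with tau in APOE3, at 36.8, 27.9 and 29.9 CPM against 20.1, 24.2 and 24.7 CPM untreated in the second series, and at 48.2, 47.8 and 40.1 CPM against 27.4, 33.2 and 20.0 CPM untreated in the SAN series. Again the groups did not overlap within either series. The log2 fold change was 0.64 ± 0.14 (edgeR adjusted p = 0.0025), with 0.47 in the second series alone (adjusted p = 0.12) and 0.84 in the SAN series alone. Cnp (chr11:100574904-100591729) behaved likewise in CPM: 116, 79.2 and 94.2 with tau against 67.6, 75.7 and 73.7 untreated in the second series, and 106, 115 and 112 with tau against 71.3, 84.5 and 55.9 untreated in the SAN series. Cnp rose by 0.57 ± 0.13 (edgeR adjusted p = 0.0055), with 0.43 in the second series alone (adjusted p = 0.25) and 0.73 in the SAN series alone. Nes, Aldh1l1 and Cnp kept their calls without any single library. Mbp, beside Cnp in the same class, gave no call and lay at 90.6 to 124 CPM with tau and at 87.9 to 124 CPM untreated.

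Postn and Pdgfrb were called closer to the threshold. Postn fell with tau in APOE3 by 0.83 ± 0.26 on the log2 scale (edgeR adjusted p = 0.030). It was at 0.505, 0.166 and 0.570 CPM with tau against 1.71, 1.43 and 1.383 CPM untreated in the SAN series (log2 fold change -1.78), and at 12.6, 8.44 and 7.79 CPM against 8.86, 16.8 and 15.5 CPM in the second series (-0.49, adjusted p = 0.43). The groups overlapped in the second series only. Pdgfrb (the receptor for PDGF-BB on mural cells and fibroblasts, chr18:61045150-61085061) had 0.308 to 2.16 CPM (median 0.682) with tau and 0.0626 to 0.856 CPM (median 0.290) untreated. It rose by 1.39 ± 0.45 (edgeR adjusted p = 0.041), and was called in neither series alone (adjusted p = 0.51 in the second, 0.11 in the SAN series). The Postn call was lost without any of untreated APOE3 libraries 1, 2, 5 and 6 or APOE3 tau libraries 2 to 6 (edgeR adjusted p = 0.0509 to 0.0664). The Pdgfrb call was lost without any of untreated APOE3 libraries 1, 2, 5 and 6 or APOE3 tau libraries 2, 3, 5 and 6 (edgeR adjusted p = 0.0546 to 0.151).

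By class, 2 of 10 fibroblast, 2 of 8 astrocyte, 1 of 8 oligodendrocyte and 0 of 3 neuron markers were called for tau in APOE3. The class medians on the log2 scale were 0.57, 0.11, -0.10 and -0.84. The collagens were not called, with Col1a1 at 0.67 ± 0.88. Without APOE3 tau library 5 the sign of Col1a1 turned, at -0.96 ± 0.93, and that of Col3a1 was negative as well, at -0.39 ± 1.08, neither called. The fibroblast median was then -0.42, with 6 of 10 members negative and 0 called by edgeR. The neuron markers had 0 members at an unadjusted p under 0.05. In the SAN series alone, edgeR also called 4 other members, Mag (0.95 ± 0.20, adjusted p = 0.0051), Cspg4 (-1.74 ± 0.42, adjusted p = 0.011), Slc1a2 (2.07 ± 0.58, adjusted p = 0.025) and Olig2 (-1.93 ± 0.54, adjusted p = 0.025). Olig2 was at 0.07 ± 0.95 in the second series alone. The share of all genes called in the SAN series alone is not given here, so these calls have no background beside them.

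In APOE3S/S the tau comparison called 1 of 29 tested members, beside 3.28% of all genes tested (2.14% higher, 1.14% lower). Pdgfrb was at 0.383 to 0.893 CPM (median 0.642) in the 6 tau libraries and at 0.0567, 0.207, 0.135 and 0.0751 CPM in the 4 untreated ones, which did not overlap. It rose by 2.43 ± 0.61 (edgeR adjusted p = 0.035), near the floor of 3 counts in the untreated libraries. The call was lost without any of untreated APOE3S/S libraries 1, 3 and 4 or APOE3S/S tau libraries 2, 4 and 6 (edgeR adjusted p = 0.0523 to 0.123), and in either series alone (0.16 in the second, 0.15 in the SAN series). With both series in the fit, Pdgfrb was thus the single member called with tau in both genotypes. In the SAN series alone that member was Slc1a2 instead. It rose there by 3.31 ± 0.73 in APOE3S/S (edgeR adjusted p = 0.024) and by 2.07 ± 0.58 in APOE3 (0.025). In the second series alone Slc1a2 was called in neither genotype (0.54 in APOE3S/S, 0.86 in APOE3).

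The members called in APOE3 had these values in APOE3S/S. Nes was at 6.01 to 41.9 CPM (median 16.9) with tau and 11.3 to 70.2 CPM (median 25.5) untreated, a log2 fold change of -0.71 ± 0.22 (edgeR adjusted p = 0.068, and 0.029 with DESeq2). Aldh1l1 was at 35.4 to 53.2 CPM with tau and 25.7 to 56.1 CPM untreated (0.27 ± 0.15), and Cnp at 95.5 to 125 CPM with tau and 67.9 to 119 CPM untreated (0.26 ± 0.15). Postn had a log2 fold change of -0.46 ± 0.28 and was not called (edgeR adjusted p = 0.38), and Pdgfrb is given above. Slc1a2 (2.48 ± 0.71, edgeR adjusted p = 0.056) was called by DESeq2. Col5a1 had 0.767 to 2.22 CPM with tau and 0.346 to 0.719 CPM untreated, without overlap, and was not called (1.42 ± 0.51, edgeR adjusted p = 0.12). The test of the difference between the tau effects of the genotypes called 0 of 29 members with edgeR and 0 with DESeq2, with 0 members at an unadjusted p under 0.05 (2.04% of all genes). The difference, APOE3S/S minus APOE3, was 0.33 ± 0.29 for Nes, -0.37 ± 0.20 for Aldh1l1 and 1.04 ± 0.77 for Pdgfrb. No member can therefore be said to respond to tau in only 1 genotype.

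Other lists moved beside the markers with tau. Over all genes tested, 14.8% were called in APOE3 and 3.28% in APOE3S/S. In APOE3, 3 of 4 endothelial genes tested were called, Cdh5 (2.40 ± 0.48) and Pecam1 (2.25 ± 0.51) higher and Flt1 (-0.63 ± 0.14) lower, and the list summed to 35.3 to 60.5 CPM with tau and 40.0 to 88.7 CPM untreated, with Cldn5 at 0 in all libraries. Among border macrophage and monocyte genes 3 of 8 were called, all higher, including Ly6c2 (4.74 ± 0.70) and Cd163 (1.59 ± 0.41), and the list summed to 1682 to 3182 CPM with tau and 1503 to 2949 CPM untreated. Of 2 lymphocyte and neutrophil genes tested, Camp rose (4.15 ± 0.90). Of 12 further fibroblast genes, Pdpn (0.82 ± 0.25) and Col4a2 (1.26 ± 0.42) rose. Further astrocyte (8 tested), oligodendrocyte (8) and neuron genes (3) gave no call by edgeR, with 2, 0 and 1 of them at an unadjusted p under 0.05. Of 20 microglia genes 10 were called, including a fall of Trem2 (-0.90 ± 0.15). In APOE3S/S, Col4a2 (2.19 ± 0.51) and Pdpn (1.13 ± 0.30) rose and Trem2 (-0.78) fell, and the other lists gave no call by edgeR. What part these changes have in the marker values was not tested.

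The genotypes were compared within each treatment. Between untreated APOE3S/S and untreated APOE3, edgeR called 0 of 29 tested members and 0.00719% of all genes, and DESeq2 called 0 members. At an unadjusted p under 0.05 stood 5 members and 7.75% of all genes. They were Aldh1l1 (0.56 ± 0.15), Tubb3 (2.11 ± 0.64), Cnp (0.38 ± 0.15), Gfap (1.13 ± 0.52) and Pdgfrb (-1.43 ± 0.65), each with an edgeR adjusted p of 0.64. In APOE3S/S and APOE3 with tau, edgeR called 0 of 29 members and 0.0144% of all genes, DESeq2 called 0, and 0 members stood at an unadjusted p under 0.05 (2.16% of all genes). In untreated libraries 9 of 10 tested fibroblast markers had a negative log2 fold change, with a median of -0.58 beside -0.002 over all genes, and 1 of them had an unadjusted p under 0.05. The untreated sign counts use all libraries, while those with tau are given only without APOE3 tau library 5. That library was chosen after its values were seen. With tau the signs did not run that way once it was left out. Then 7 of 10 fibroblast markers were positive (median 0.21), as were 7 of 12 further fibroblast genes (median 0.25), beside 0.001 over all genes.

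With amyloid the genotypes lay furthest apart in the fibroblast markers, in 3 libraries each and in the SAN series alone. Col1a1 was at 0.340, 0.0598 and 0.295 CPM in APOE3S/S with amyloid and at 5.91, 16.6 and 2.06 CPM in APOE3 with amyloid. Col1a2 was at 0.397, 0.120 and 0.708 CPM in APOE3S/S and at 4.09, 15.6 and 2.00 CPM in APOE3. Col3a1 (chr1:45311538-45349706) was at 0.0567, 0.0598 and 0.236 CPM in APOE3S/S and at 3.92, 20.6 and 0.386 CPM in APOE3. For Col1a1, Col1a2, Col3a1 and Dcn every APOE3S/S library lay below every APOE3 library. These genes were picked after their values were seen. The share of all genes without overlap was not computed, here or for the other groups said not to overlap. Such separations therefore have no background beside them.

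The fit on 11 SAN libraries (13867 genes) called 0 of 28 tested members for this comparison, and 0% of all genes. Lum, S100b, Mog, Sox10, Snap25 and Syt1 were too low to be tested there. At an unadjusted p under 0.05 stood 11 members and 12.1% of all genes, with 10 of the 11 lower in APOE3S/S. The log2 fold change was -5.01 ± 1.00 for Col1a1 (edgeR adjusted p = 0.30), -4.04 ± 0.96 for Col1a2 (0.36), -5.98 ± 1.36 for Col3a1 (0.36) and -4.48 ± 1.22 for Dcn (0.38). Cspg4 (-1.24 ± 0.40) and Cnp (0.59 ± 0.19) followed with an edgeR adjusted p of 0.39 each, and Cnp was the member that stood higher. DESeq2 called 3 members, Col1a1 (adjusted p = 0.0041), Col1a2 (0.039) and Col3a1 (0.0076), and 59 of all genes.

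The size of that difference moved with APOE3 amyloid library 2. Without it the log2 fold changes were -3.97 ± 0.91 for Col1a1, -2.79 ± 0.85 for Col1a2, -4.05 ± 1.09 for Col3a1 and -3.22 ± 1.21 for Dcn, each with an edgeR adjusted p of 0.67. The sign was kept, on values near the floor in APOE3S/S. With all libraries, 10 of 11 fibroblast markers tested were negative (median -1.58), as were 11 of 13 further fibroblast genes (median -2.31), beside a median of 0.00 over all genes. Without that library 8 of 10 fibroblast markers tested were negative (median -0.81), as were 10 of 12 further fibroblast genes (median -1.21), and Pdgfrb and Postn were positive at 0.70 ± 0.77 and 0.99 ± 0.45. The fibroblast sum was 7.85, 7.88 and 8.44 CPM in APOE3S/S with amyloid, against 12.6, 26.9 and 86.7 CPM in APOE3 with amyloid.

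Amyloid against no treatment called 0 of 28 members in either genotype, with edgeR and with DESeq2, beside 0% of all genes by edgeR in both. In APOE3, 2 members stood at an unadjusted p under 0.05 (13.1% of all genes). Aldh1l1 was at 41.5, 49.6 and 48.5 CPM with amyloid and at 27.4, 33.2 and 20.0 CPM untreated (0.78 ± 0.23, edgeR adjusted p = 0.23), without overlap. Col3a1 had a log2 fold change of 2.36 ± 0.97 (edgeR adjusted p = 0.33) that came to 0.43 ± 0.84 without APOE3 amyloid library 2. In APOE3S/S, 3 members stood at an unadjusted p under 0.05 (8.52% of all genes): Cspg4 (-1.34 ± 0.43), Pdgfrb (2.68 ± 1.05) and Mag (0.55 ± 0.22), each with an edgeR adjusted p of 0.58. The untreated APOE3S/S group held only 2 libraries in this fit. The test of the difference between the amyloid effects of the genotypes called 0 of 28 members with edgeR and DESeq2, with 0 at an unadjusted p under 0.05 (3.71% of all genes). The tau and amyloid comparisons share the untreated libraries of the SAN series, so their values are not independent.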

How the data were processed

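The study profiled RNA of mouse primary microglia, extracted on a Zymo column and made into libraries with Lexogen's forward 3′ QuantSeq kit, per the labels. The authors deposited 2 tables of raw counts per gene, with 22 libraries (untreated and tau) and 11 (untreated and amyloid); 5 libraries were in both, identical, and were used once. The submitters' processing notes name the build GRCm38 (mm10) and DESeq2 1.38.3. Aligner and counting program: not given in the sources used here. Of 60976 rows, 6360 held no number and 25 no name; 81 exact repeats and 108 lower rows of a repeated symbol were dropped, leaving 54427. No 2 of 378 pairs of libraries were identical. The 57 pairs within a group differed by 4.22 to 147 times the counting variance, with groups pooled over both title series. That range therefore includes pairs across the series.

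Counts were analysed with edgeR 4.0.16 (R 4.3.3): TMM scaling, filterByExpr by group, quasi-likelihood tests and Benjamini-Hochberg adjustment over all genes tested, with a call at an adjusted p under 0.05. The tau fit took 22 libraries with a title-series term (13905 genes) and the amyloid fit 11 libraries (13867 genes). CPM are counts scaled to 1000000 counts of a library. Log2 fold changes are edgeR's. Alternatives were RLE scaling, no filter, DESeq2 1.42.0, no series term, each series or treatment alone, a replicate block and leaving out each library. On simulated counts, the tau comparison in APOE3 (13905 genes) recovered 72% of 100 genes changed 2-fold and 95% of 100 changed 4-fold, with 8 false among 175 calls, and the amyloid comparison in APOE3 (13867 genes) 57% and 87%, with 7 false among 151 calls. The simulated counts held no difference between title series or genotypes, and the changed genes were picked at random from all genes tested. These rates check the fit and do not give the power for the members, most of which are low.

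The members and the lists were chosen with earlier results of these data known. Values are given for members called in any comparison or among the 3 most abundant of their class, and the rest by ranges and counts; from other lists, the 2 called genes with the smallest adjusted p are named, except a few that are not reported here. Members named beyond that rule were chosen after their values were seen. Coordinates are from GENCODE M21 and promoters from RefSeq (GRCm38.p6).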

Additional observations from a re-analysis of the deposited data

Results flagged for a closer look

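A library was listed here where its gap to the nearest other library of its group was large for the group's range. Of 149 groups tested, 20 gave such a library, where the rule is set for about 1 in 20 by chance. That rate leaves out that groups pool both title series, that markers vary together and that some counts are near 0. The 20 are therefore a list and no measure of an excess over chance. Of these 20, 8 fell on APOE3 tau library 5. In that library Col1a1 was at 12.91 CPM (next highest 3.986 CPM), Col1a2 at 9.534 CPM (2.138 CPM) and Col3a1 at 9.922 CPM (2.196 CPM). Col5a1 was at 5.487 CPM there (1.683 CPM), Dcn at 3.714 CPM (0.9245 CPM) and Lum at 0.4989 CPM (0.1122 CPM). Thy1 stood at 1.053 CPM (0.1541 CPM) and the connexin gene Gja1 at 1.94 CPM (0.5435 CPM). APOE3S/S tau library 3 stood apart for Col1a1 at 10.51 CPM (2.678 CPM), Col1a2 at 5.437 CPM (1.961 CPM) and Col3a1 at 4.335 CPM (0.7174 CPM). APOE3S/S tau library 4 stood apart for Gja1 at 1.742 CPM (0.6613 CPM) and Syt1 at 0.1802 CPM (0 CPM).

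The other members were each apart in single libraries. Aqp4 was at 6.688 CPM in untreated APOE3S/S library 1 (next 1.452 CPM), which also held Syt1 at 0.17 CPM (0 CPM). S100b was at 1.56 CPM in APOE3 tau library 2 (0.4076 CPM). Mog was at 1.132 CPM in APOE3 tau library 3 (0.3467 CPM) and at 1.503 CPM in untreated APOE3 library 4 (0.4384 CPM). Untreated APOE3 library 3 held Lum at 0.2634 CPM (0 CPM) and Syt1 at 0.1976 CPM (0.06785 CPM). The values of Lum and Syt1 are a few counts each. Groups of 3 libraries, the amyloid groups among them, were not examined in this way.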

How the results depend on the processing

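Members called are counted here. For tau in APOE3 the count of 5 became 11 without the low-count filter, 2 without the title-series term, 8 in the SAN series alone and 0 in the second series alone, and lay at 3 to 6 without single libraries. For tau in APOE3S/S the count of 1 became 6 without the filter, 3 with DESeq2, 0 without the series term and 0 in the second series alone, and lay at 0 to 2 without single libraries. It was 1 in the SAN series alone too, but there the member was Slc1a2 and not Pdgfrb. For the title series the count of 11 became 17 without the filter, 14 with DESeq2 and 4 in untreated libraries alone, and lay at 9 to 12 without single libraries. Without the filter the counts of 0 became 5 for genotype untreated, 1 for genotype with tau, 6 for amyloid in APOE3, 3 for amyloid in APOE3S/S, 8 for genotype with amyloid and 2 for the difference of amyloid effects. With DESeq2 genotype with amyloid gave 3. Where leaving out a library kept at least 2 in each group, these other counts stayed at 0. No setting turned the direction of a member called with all libraries and the settings of the report. Some members called only in another setting did turn. For tau in APOE3, Col1a1 and Col3a1 were called without the filter and turned without APOE3 tau library 5. Olig2 was called there in the SAN series alone and turned in the second. For amyloid in APOE3, Aqp4 was called without the filter (1.07) and was at -0.04 without APOE3 amyloid library 2. Without Aldh1l1 the median astrocyte sum was 27.8 CPM, and without Mbp the median oligodendrocyte sum 125 CPM. Over all genes, 2064 calls for tau in APOE3 became 846 without the series term and 372 in the second series alone, and 456 for tau in APOE3S/S became 1441 without the filter, 945 with DESeq2, 0 without the series term and 34 to 836 without single libraries. For the title series, 5370 became 1864 in untreated libraries alone. Genotype untreated (1) gave 343 without the filter and 5 with DESeq2, genotype with tau (2) 42 without it, and the difference of tau effects (0) 149. For amyloid, counts of 0 became 1008 without the filter and 296 with DESeq2 in APOE3, 665 and 2 in APOE3S/S, 739 and 59 for the genotypes, and 75 without the filter for the difference. The cause of these shifts was not tested. Where a setting has no count over all genes here, its member count has no background beside it. A replicate block, set by the number in the title within a series, called 0 members in any genotype comparison. In 13 pairs of libraries with equal title numbers r ran from -0.217 to 0.413, with 3 over 0.1. These values do not settle whether such libraries are paired. Members under 0.207 CPM are at the limit that depth sets.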
